A study of Mus musculus with 12 samples.

Results

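The matrix module of the liver arrays comprised the probes named for collagens, laminins, matrix glycoproteins and proteoglycans, lysyl oxidases, matrix metalloproteinases (MMPs) and their tissue inhibitors (TIMPs), ADAM and ADAMTS proteases, integrins and cadherins. They were chosen by gene symbol alone. Of 20280 probes, 126 carried such a name, for 86 different symbols. The scanner files hold 2 versions of the gene annotation. The older version, in the files of 9 arrays, named 108 of these probes, the revised version, in the files of 3 arrays, named 98, and 80 were named by both. For 98 probes, of 77 genes, both versions pointed to the same gene or family. For 25 probes the versions differed, and 7 of the 8 probes named Timp4 were among them. The remaining 3 probes matched by their letters only. They are named Itgb4bp, a factor of ribosome assembly, and Col4a3bp, a ceramide transporter, with 1 and 2 probes, respectively.

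Liver RNA came from male FVB mice of 6 weeks of age that were either fed or deprived of chow for 12, 24 or 72 hours. All mice lived in metabolic cages, and warming with an infrared lamp began at 24 hours. Each of the 12 arrays, 3 per group, carried Cy3-labelled RNA pooled from 2 livers and a Cy5-labelled common reference pooled from 6 fed livers. The labels number the fed livers in a way that places those of the fed arrays within the reference pool. Values are log2 ratios of sample over reference, and an SD is between pools rather than between mice. Because whole liver was extracted, fewer cells of a type and less RNA per cell cannot be told apart.

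The extracellular matrix of the liver is a thin scaffold of fibrillar and basement-membrane collagens, laminins, fibronectin and small proteoglycans, laid down mainly by stellate cells, fibroblasts and endothelium, with hepatocytes as a major source of fibronectin. MMPs, ADAMs and ADAMTS enzymes cleave matrix and cell-surface proteins, TIMPs inhibit them, and lysyl oxidases crosslink collagen and elastin. Integrins tie cells to the matrix, whereas cadherins tie cells to each other. The comparisons below ask whether transcripts of this machinery differed between fed liver and liver at each time of fasting.

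The member probes were well measured on most arrays. Their sample signal was well above background on all 12 arrays for 103 of 126 probes, and on all arrays of at least 1 group for every one of them. On replicate 2 of the 12-hour group and replicate 3 of the 24-hour group, called the low-signal arrays here, members had a median signal of 4.58 and 3.36 times the local background, against 5.00 to 10.1 on the other arrays. On replicate 2 of 12 hours, the log2 ratio of a member lay a median of 0.70 from the mean of both other arrays of the group, against 0.31 and 0.34 for these. The sign of the ratio was opposite to that mean for 55 of 121 members on this array and for 64 of 125 on replicate 3 of 24 hours. Spots marked as outliers by the scanner software were treated as missing, which took 43 and 20 members from the second and the third fed array, so that 52 members had 2 fed values and 6 had only 1. The median SD of a member was 0.15 in the fed group, 0.40 at 12 hours, 0.27 at 24 hours and 0.11 at 72 hours. The images were quantified on 3 days. All 72-hour arrays shared a day with fed replicates 2 and 3, both low-signal arrays shared theirs with fed replicate 1, and the other 12- and 24-hour arrays had a day without fed arrays. The 3 files with the revised annotation are those of that shared day of the low-signal arrays and fed replicate 1. Albumin (Alb), the defining hepatocyte marker of the tissue, was well above background on 12 of 12 arrays.

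**Figure D1:**
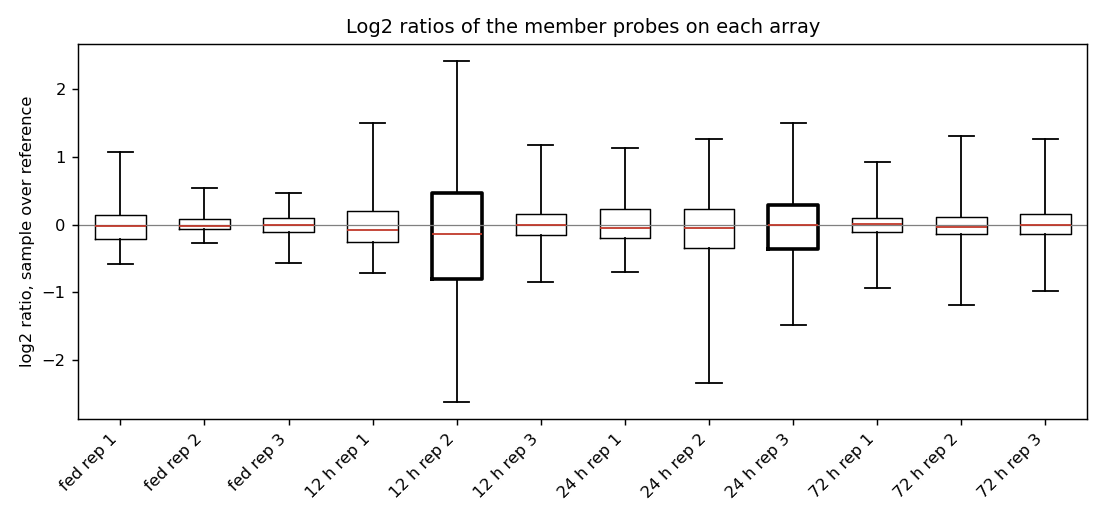
Log2 ratio of sample over reference (vertical axis) of the member probes on each of the 12 arrays (horizontal axis). Boxes span the quartiles with the median as a red line, whiskers reach the lowest and highest member, and thick boxes mark both low-signal arrays. Medians lay between -0.14 and 0.01 on all arrays, while the range was widest on replicate 2 of 12 hours, from -2.61 to 2.41.

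No member probe passed the threshold at any time of fasting. With limma, 0 of 126 members combined a Benjamini-Hochberg adjusted p under 0.05 with at least 1.4-fold at 12, 24 or 72 hours against fed, or at 72 against 24 hours. Of all probes tested, 0.00497% passed at 12 hours, 0.00497% at 24 hours, 0.00996% at 72 hours and 0% between 72 and 24 hours. The smallest adjusted p of a member in limma was 0.956 at 12 hours and 1.00 in each of the other comparisons. At an unadjusted p under 0.05 in limma, 5 members differed at 12 hours (3.97% of members, against 3.92% of all probes), 3 at 24 hours (2.38% against 3.04%), 3 at 72 hours (2.38% against 1.55%) and 6 between 72 and 24 hours (4.76% against 3.42%). These shares stood close to those of all probes. With the stricter rule of an unadjusted p under 0.01 and a 1.4-fold change, 1, 0, 0 and 2 members remained, while the shares of all probes were 0.656%, 0.641%, 0.428% and 0.503%.

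The median log2 change of the 126 members was -0.05 at 12 hours, -0.04 at 24 hours, -0.01 at 72 hours and 0.03 between 72 and 24 hours, and that of all probes was -0.01, -0.0022, -0.01 and -0.01. Values were higher than in fed liver for 50, 56 and 60 members and lower for 76, 70 and 66 at 12, 24 and 72 hours. Whatever their p, 16 members differed by at least 1.4-fold at 12 hours, 4 at 24 hours, 7 at 72 hours and 11 between 72 and 24 hours. The share of all probes was not counted here, so these counts do not show how members compare with other probes. The groups also differ in spread, with a median SD of a member of 0.40 at 12 hours and 0.11 at 72 hours. The 3 comparisons against fed share the fed arrays and are not independent of each other.

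**Figure D2:**
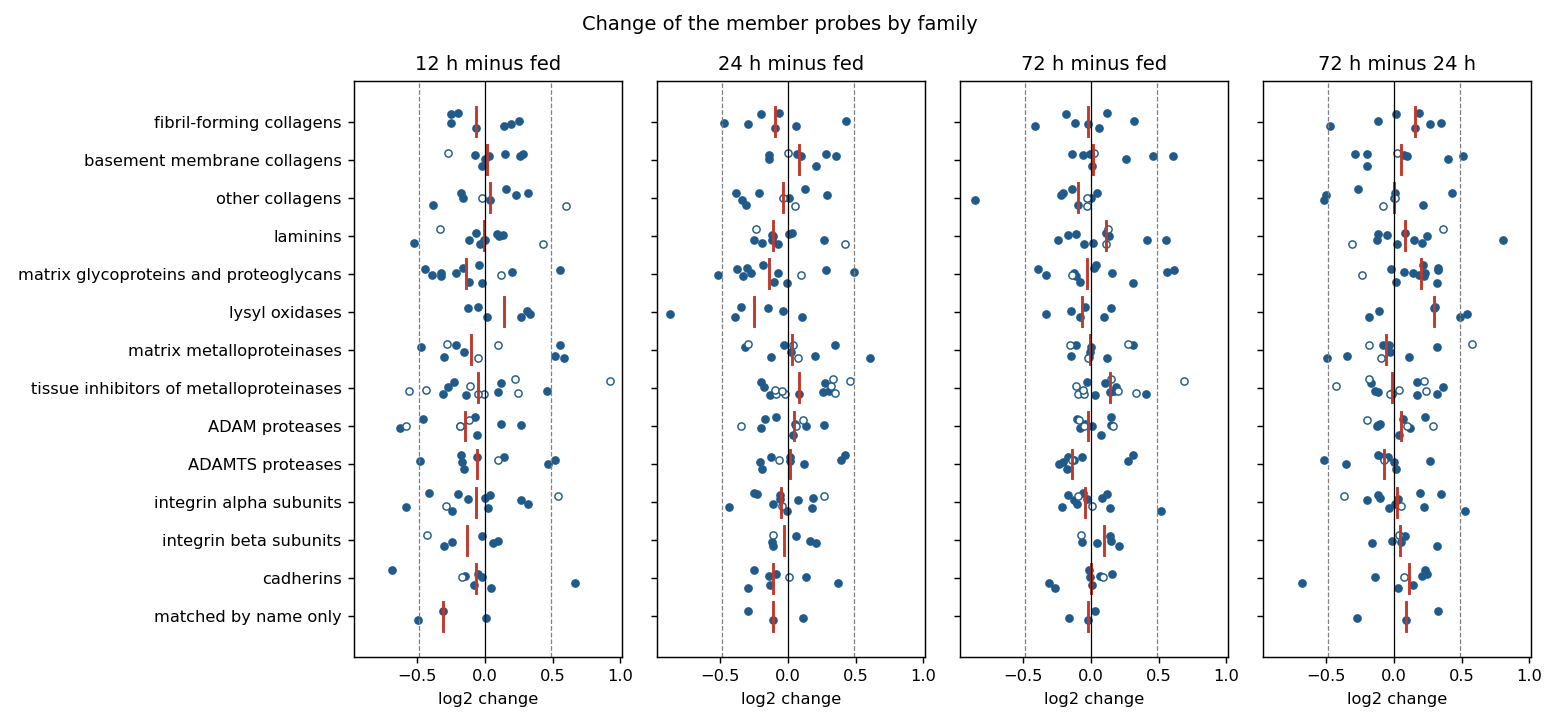
Log2 change (horizontal axis) of each member probe by family (vertical axis) in the 4 comparisons. Filled points are probes whose annotation versions agree or that matched by name only, open points are those whose versions differ, red bars are family medians and dashed lines mark a 1.4-fold change. In each comparison most points lie between the dashed lines, and the 126 members range from -0.68 to 0.92 at 12 hours and from -0.85 to 0.68 at 72 hours.

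A second description is whether the arrays of the groups overlapped. At 12 hours all values lay apart from the fed values for 16 of the 120 members with at least 2 values in both groups (13.3%, against 14.8% of all probes), and 7 of them were higher. The count was 20 of 120 at 24 hours (16.7% against 12.5%), 22 of 119 at 72 hours (18.5% against 21.7%) and 21 of 125 between 72 and 24 hours (16.8% against 15.5%). These shares, too, lay near those of all probes. The genes named in the following were mostly taken from these members, 5 with the largest difference in each direction and comparison.

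Which members passed differed with the treatment of the low-signal arrays. When both were left out, 1 member passed in limma at 12 hours (against 2.67% of all probes), 6 at 24 hours (against 9.41%), 1 at 72 hours (against 0.826%) and 1 between 72 and 24 hours (against 1.32%). When all arrays were kept but weighted by their quality, 6, 9, 5 and 3 members passed, against 9.53%, 10.5%, 4.11% and 4.26% of all probes. With the day of quantification as a block, 18, 13, 0 and 7 members passed, against 23.2%, 12%, 0.0199% and 10.6% of all probes. In that fit, the comparison of the 12- or 24-hour group with fed liver rests on fed replicate 1 and the low-signal arrays of the same day. No 24-hour array shared a day with the 72-hour arrays, so the comparison of 72 with 24 hours rests on these arrays too. Values without the low-signal arrays are given below for each member whose call they change.

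**Figure D3:**
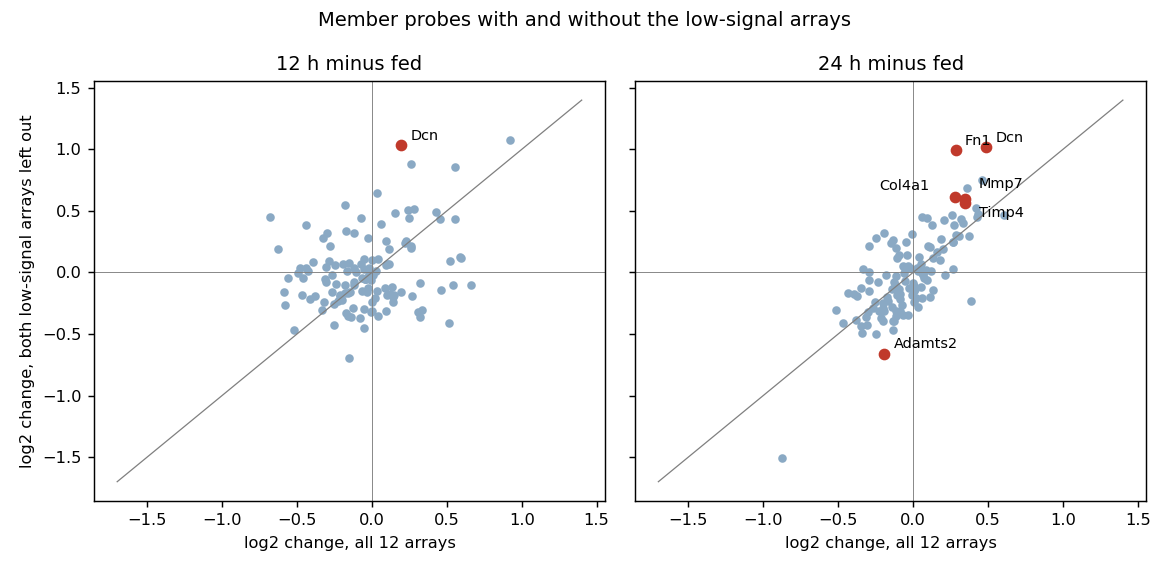
Log2 change against fed of each member probe with all 12 arrays (horizontal axis) and with both low-signal arrays left out (vertical axis), at 12 hours (left) and 24 hours (right). The diagonal marks equal values, and labelled red points passed an adjusted p of 0.05 and 1.4-fold in limma without these arrays. Decorin (Dcn) moved from 0.20 to 1.03 at 12 hours.

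Among the matrix glycoproteins and proteoglycans, Dcn and 1 of the 3 probes of fibronectin (Fn1) passed when the low-signal arrays were left out. Dcn encodes decorin, a small proteoglycan that binds collagen fibrils and transforming growth factor β. Its log2 ratio was -0.06, 0.12 and -0.32 on the fed arrays, 0.86, -1.52 and 0.98 at 12 hours, 0.97, 0.86 and -0.63 at 24 hours, and 0.14, 0.75 and 0.54 at 72 hours. At 12 and 24 hours the low-signal array lay below and the other arrays above all fed arrays, and at 72 hours all arrays lay above them. With all arrays, Dcn changed by 0.20, 0.49 and 0.56 on the log2 scale at 12, 24 and 72 hours, each with an SE of 0.61. Without the low-signal arrays, Dcn passed in limma at 12 hours (2.05-fold, adjusted p = 0.0254) and 24 hours (2.02-fold, adjusted p = 0.0140), with 2 fasted arrays each, and not at 72 hours (log2 change 0.58, adjusted p = 0.138). Within the day that holds fed replicate 1 and both low-signal arrays, the log2 difference of Dcn from fed was -1.45 at 12 hours and -0.57 at 24 hours. The low-signal arrays are the only 12- and 24-hour arrays of that day, so that day and low signal cannot be told apart. With the day as a block it passed at 12 hours as lower, with a log2 change of -1.16 (adjusted p = 0.0408 in limma).

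Fn1, the gene of fibronectin, had 3 probes that did not move alike. Probe 9044 measured 0.32, -0.02 and 0.13 in fed liver, 0.95, 0.22 and 0.93 at 12 hours, 0.87, 1.26 and -0.85 at 24 hours, and 0.25, 0.98 and 1.05 at 72 hours. Apart from both low-signal arrays and the first 72-hour array, fasted liver lay above all fed arrays. Its log2 change was 0.56 ± 0.47 (SE), 0.28 ± 0.47 and 0.61 ± 0.47 at 12, 24 and 72 hours. It passed in limma at 24 hours when the low-signal arrays were left out (1.99-fold, adjusted p = 0.0297) and missed at 12 hours (1.81-fold, adjusted p = 0.0766). Probe 20380 gave 0.28 and 0.03 at 12 and 24 hours in the same fit (adjusted p = 0.678 and 0.965 in limma). Probe 19587 gave 0.28 and 0.31 there (adjusted p = 0.347 and 0.231 in limma). Probe 20380 was the brightest, with a median fed signal of 153 times the local background, against 5.54 times for probe 9044. The signal of probe 9044 was well above background on 2 of 3 arrays at 24 hours.

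Sparc, a collagen-binding glycoprotein of the matrix, was lower in fasted liver at the later times. Its values were -0.02, -0.02 and -0.13 in fed liver, -0.04, -1.39 and 0.08 at 12 hours, -0.33, -0.37 and -1.03 at 24 hours, and -0.37, -0.43 and -0.37 at 72 hours. All 24- and 72-hour arrays lay below all fed arrays, without overlap. The log2 change was -0.52 ± 0.34 (SE) at 24 hours and -0.33 ± 0.34 at 72 hours. Neither passed in limma, nor did they without the low-signal arrays (-0.30 and -0.35, adjusted p = 0.0844 and 0.120), and within the shared day of fed and 72-hour arrays the change was -0.31. With the day as a block, Sparc passed as lower at 12 and 24 hours, with log2 changes of -1.13 and -1.25 (adjusted p = 0.0140 and 0.0164 in limma). Fbn2, a microfibril fibrillin, was lower on the 8 fasted arrays that measured it than on the 2 such fed arrays, at -0.07 and 0.11 in fed liver and between -0.51 and -0.09 in fasted liver. Its log2 changes were -0.32, -0.27 and -0.13, and its signal was well above background on 2 of 3 arrays at 12 hours and 1 of 3 at 24 hours. Bgn, the biglycan gene and a relative of decorin, had a single fed value of 0.37 and log2 changes of -0.44, -0.37 and -0.39. Without the low-signal arrays Bgn gave 0.04 and -0.19 at 12 and 24 hours, and with the day as a block it passed as lower at 12 hours (-1.11, adjusted p = 0.0370 in limma). Changes of Fbn1 lay between -0.12 and -0.08 against fed, and those of Fbln1 between -0.30 and 0.03. Sparcl1 differed between its probes, at 0.12 and -0.21 at 12 hours, and the annotation versions differ on the first of these. Of the 12 probes of this family, 3, 3 and 6 were higher than in fed liver at 12, 24 and 72 hours, with a median of -0.14, -0.14 and -0.03. When the low-signal arrays were left out, 6 and 5 were higher at 12 and 24 hours, with medians of -0.01 and -0.04.

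**Figure D4:**
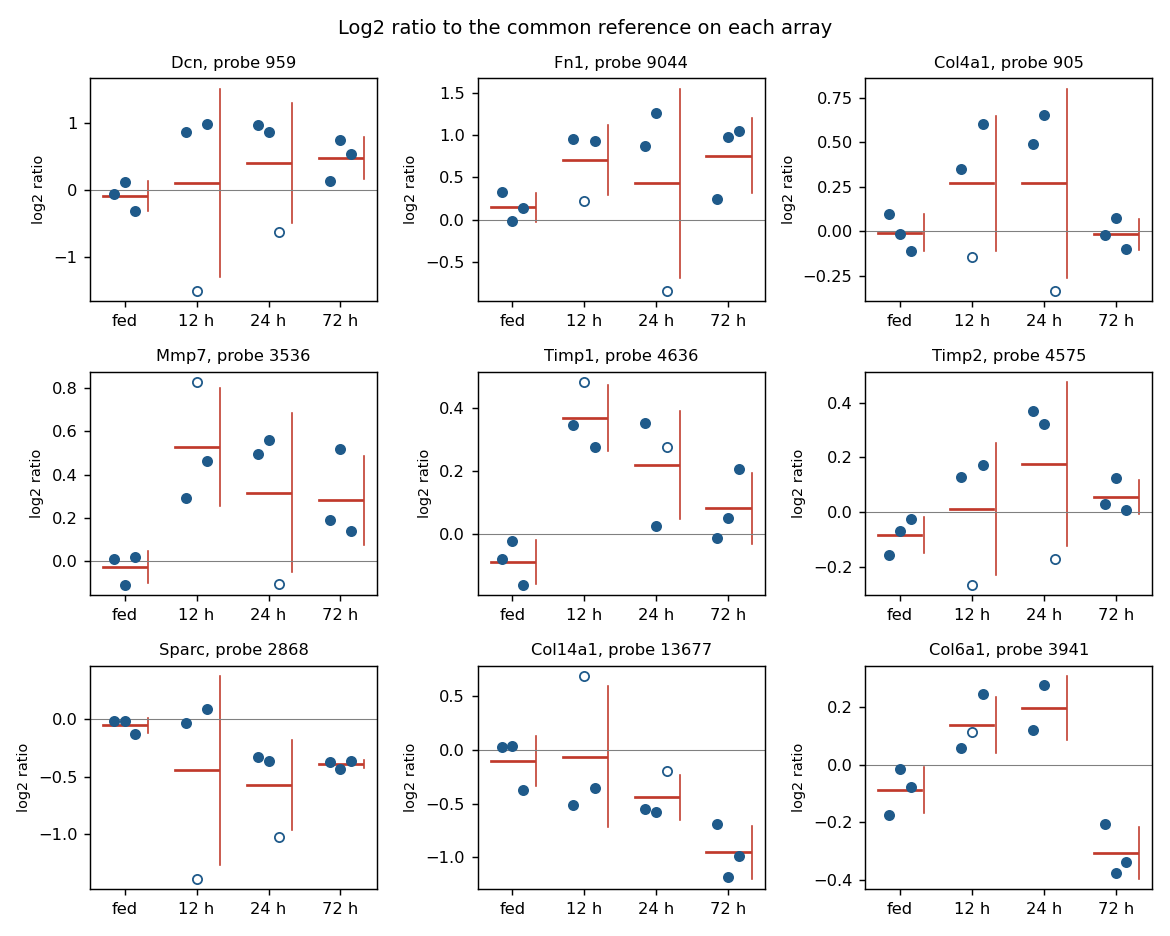
Log2 ratio of sample over reference on each array (vertical axis) for 9 member probes in fed liver and at each fasting time. Points are arrays, open points are both low-signal arrays, red bars are group means and thin red lines are 1 SD to each side. For Dcn, Fn1 and Col4a1 the open points lie below the other arrays of their group, and for Col14a1 all 72-hour arrays, from -1.18 to -0.69, lie below all fed arrays.

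The basement membrane, the sheet that underlies epithelia and vessels, is built on type IV collagen and laminin. Col4a1 encodes the main type IV chain, and its values were 0.10, -0.01 and -0.11 in fed liver, 0.35, -0.14 and 0.60 at 12 hours, 0.49, 0.65 and -0.33 at 24 hours, and -0.02, 0.07 and -0.10 at 72 hours. The arrays other than the low-signal arrays lay above the fed arrays at 12 and 24 hours, and the 72-hour arrays lay among them. Its log2 change was 0.28 ± 0.26 (SE) at both earlier times and -0.01 ± 0.26 at 72 hours. Col4a1 passed in limma without the low-signal arrays at 24 hours (1.53-fold higher than fed, adjusted p = 0.0201), missed at 12 hours (1.43-fold, adjusted p = 0.0591), and passed as lower at 72 than at 24 hours (1.54-fold, adjusted p = 0.0478).

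Col4a2, which forms the heterotrimer with Col4a1, changed by -0.07 ± 0.40 (SE) at 12 hours and -0.14 ± 0.40 at 24 hours. The changes without the low-signal arrays were 0.45 and 0.26 (adjusted p = 0.0935 and 0.213 in limma). Its values on the low-signal arrays were -1.13 and -0.97, against 0.04 to 0.38 on the other 12- and 24-hour arrays. With the day as a block Col4a2 passed as lower at both times, with log2 changes of -1.07 and -1.13 (adjusted p = 0.0110 and 0.0145 in limma). Col18a1, the precursor of endostatin and a collagen that hepatocytes secrete, had 2 probes of like course. Probe 7223 measured 0.75, 0.54 and -0.24 in fed liver and -0.04, 1.20 and 1.26 at 72 hours. Its groups overlapped throughout, and the log2 change at 72 hours was 0.46 ± 0.54, against 0.60 ± 0.51 for probe 17562. Col15a1, a related collagen of basement-membrane zones, changed by -0.02, 0.21 and 0.01.

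Col14a1, a collagen that coats the surface of fibrils, had the largest decrease of all members at 72 hours. Probe 13677 measured 0.03, 0.04 and -0.37 in fed liver, -0.52, 0.69 and -0.36 at 12 hours, -0.55, -0.58 and -0.20 at 24 hours, and -0.69, -1.18 and -0.99 at 72 hours. The 72-hour arrays lay below the arrays of every other group. The log2 change was -0.85 ± 0.29 (SE), and it passed in limma without the low-signal arrays (1.89-fold lower, adjusted p = 0.0303). Within the shared day it was -0.79 (adjusted p = 0.213 in limma). The other Col14a1 probe, 11280, gave -0.14 ± 0.26 at 72 hours, so that the probes differ in size.

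Type VI collagen forms beaded filaments near cells and basement membranes. Col6a1 measured -0.17, -0.02 and -0.08 in fed liver, 0.06, 0.11 and 0.24 at 12 hours, 0.12 and 0.27 at 24 hours, where 1 spot was missing, and -0.21, -0.38 and -0.34 at 72 hours. It was thus above all fed arrays at both earlier times and below them at 72 hours. The log2 changes were 0.23 ± 0.14 (SE), 0.29 ± 0.15 and -0.22 ± 0.14, and 72 against 24 hours gave -0.50 ± 0.15 (unadjusted p = 0.00888 and adjusted p = 1.00 in limma). Its partner Col6a2 lay the other way, at -0.38 ± 0.19 at 24 hours and 0.43 ± 0.19 for 72 against 24 hours. Col6a3, the third chain, was near its fed level at 72 hours, with changes of 0.0037 and -0.09 for its probes. The 3 chains are assembled into the same molecule, and their probes did not share a direction.

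Of the fibril-forming collagens, Col1a2, a chain of type I collagen, had 2 probes of opposite sign at 72 hours. Probe 4153 changed by -0.41 ± 0.35 (SE), with values of -0.18, -0.62 and -0.74 that all lay below both fed values of -0.11 and -0.09. Probe 16710 changed by 0.32, with a single fed value. Col5a1, a minor chain that limits fibril width, was not well above background on any 24-hour array with probe 1087, so that no change is given for that time. At 12 and 72 hours this probe changed by -0.25 and -0.12. Its other probe, 10527, gave -0.10 at 24 hours. Col5a3 was below both fed values, 0.13 and 0.16, on the 8 fasted arrays that measured it, with changes of -0.25, -0.20 and -0.18. No probe was named Col1a1 or Col3a1, which are not analysed here.

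Laminins are the heterotrimers that seed basement membranes. Lama5 encodes the α5 chain and had 3 probes. Probe 1814 was lower at 12 hours without overlap, at -0.63, -0.97 and -0.85 against -0.47, -0.20 and -0.22 in fed liver, with a log2 change of -0.52 ± 0.17 (SE; unadjusted p = 0.0124 and adjusted p = 0.956 in limma). Probe 3699 was higher at 72 hours without overlap, at 0.13, 0.70 and 0.11 against -0.44, -0.07 and -0.23, with a change of 0.56 ± 0.18. It also gave the smallest unadjusted p of all members in any comparison, 0.00112 for 72 against 24 hours (log2 change 0.81 ± 0.18, adjusted p = 1.00 in limma). Probe 7970, whose annotation versions differ, gave -0.33 and 0.13 at 12 and 72 hours. With array weights, probes 1814 and 7970 passed at 12 hours, and probe 3699 passed at 72 hours and between 72 and 24 hours. Each of the 3 probes had a lower mean at 12 and 24 hours than in fed liver and a higher one at 72 hours, with changes as small as -0.01 and 0.01 among them.

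Lamc1 encodes the γ1 chain shared by most laminins. Probe 14108 was above all fed arrays at 12 and 24 hours, with changes of 0.43 ± 0.16 (SE) and 0.42 ± 0.16. Only the older annotation names this probe Lamc1, and the other Lamc1 probes, 17828 and 19606, gave -0.07 and 0.13 at 12 hours and 0.03 and -0.12 at 24 hours. Lamb1 lay between -0.11 and 0.14 against fed for both probes, and Lamb2 changed by -0.12, 0.27 and 0.41 against a single fed value. Among the 11 laminin probes, 4, 4 and 7 were higher than in fed liver at 12, 24 and 72 hours.

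**Figure D5:**
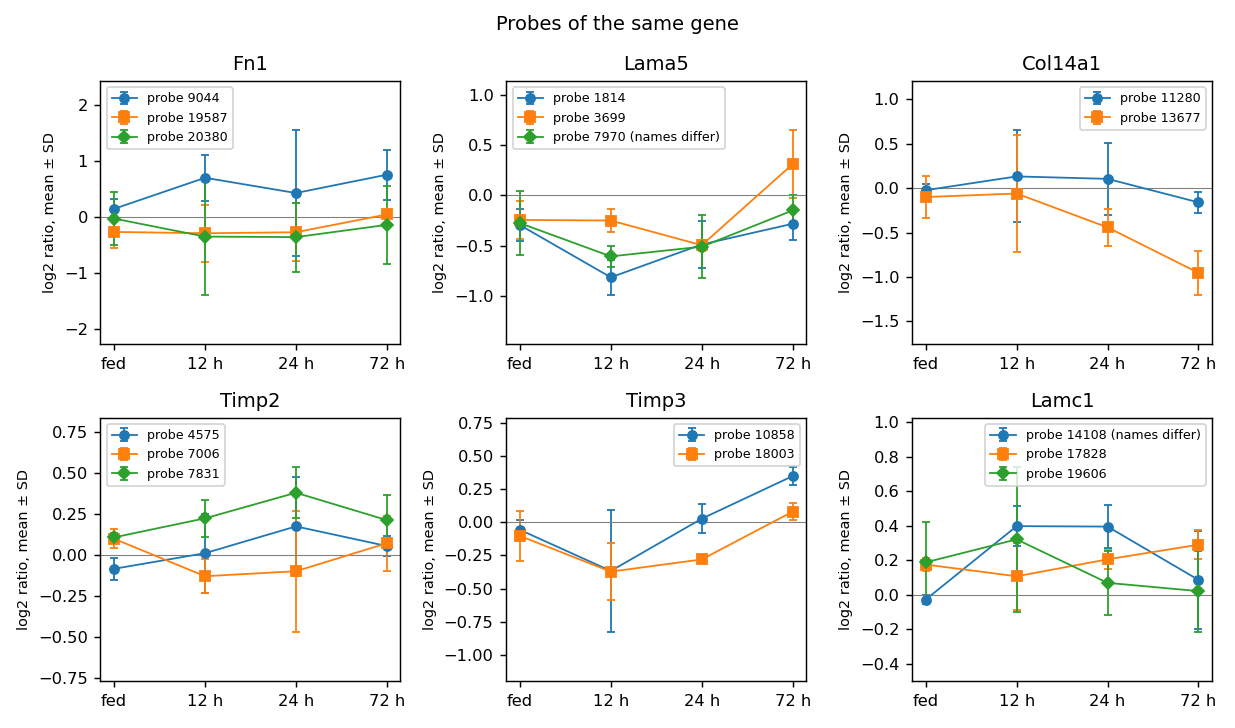
Mean log2 ratio with 1 SD to each side (vertical axis) in fed liver and at each fasting time for the probes of 6 genes that had 2 or 3 probes each. Lines are probes, and those marked in the legend have differing annotation versions. The probes of Fn1 changed by 0.56, -0.02 and -0.32 at 12 hours, and those of Timp3 by -0.31 and -0.27 at 12 hours but by 0.08 and -0.18 at 24 hours.

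Differences between probes of the same symbol were common. For the 29 symbols with more than 1 probe, all probes had the same sign of change for 15 at 12 hours, 11 at 24 hours, 8 at 72 hours and 14 between 72 and 24 hours. Several of these symbols, Timp4 and Itga3 among them, include probes on which the annotation versions differ. Mixed signs there need not be between probes of the same gene. Most changes among them were small compared with the spread between arrays.

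Lysyl oxidases crosslink collagen and elastin. Of the 6 probes, 4, 1 and 2 were higher than in fed liver at 12, 24 and 72 hours, and the median moved from 0.14 to -0.25 and -0.06. Without the low-signal arrays it was -0.26 at 12 and at 24 hours. Loxl3, probe 19132, lay below both fed values at 24 hours, at -0.58, -0.71 and -0.47 against -0.27 and -0.21, with a change of -0.35 ± 0.31 (SE). Loxl4 gave the largest decrease of any member at 24 hours, -0.87 ± 0.77, which rests on a value of -2.34 on replicate 2 against -0.07 and 0.44 on the other arrays. At 72 hours Loxl4 changed by -0.33. Lox, probe 6685, was 0.49 ± 0.26 higher at 72 than at 24 hours without overlap, and 0.28 higher without the low-signal arrays.

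Of the 10 MMP probes, only that of Mmp7 passed without the low-signal arrays. It did so at 24 hours, where 9.41% of all probes passed. Mmp7 encodes matrilysin, a small secreted metalloproteinase of epithelia. It measured 0.01, -0.11 and 0.02 in fed liver, 0.29, 0.83 and 0.46 at 12 hours, 0.49, 0.56 and -0.11 at 24 hours, and 0.19, 0.52 and 0.14 at 72 hours. All fasted arrays but replicate 3 of 24 hours lay above all fed arrays. Mmp7 changed by 0.56, 0.34 and 0.31 on the log2 scale at 12, 24 and 72 hours, each with an SE of 0.21. Mmp7 passed in limma without the low-signal arrays at 24 hours (1.51-fold, adjusted p = 0.0272) and missed at 12 hours (1.35-fold, adjusted p = 0.104). The change within the shared day was 0.33 at 72 hours.

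Timp1 encodes an inhibitor of most MMPs and is known as an early-response gene. Probe 4636 measured -0.08, -0.02 and -0.16 in fed liver, 0.35, 0.48 and 0.28 at 12 hours, 0.35, 0.03 and 0.28 at 24 hours, and -0.01, 0.05 and 0.21 at 72 hours. All 9 fasted arrays, the low-signal arrays included, lay above all fed arrays. The log2 change was 0.46 ± 0.14 (SE) at 12 hours (unadjusted p = 0.00927 and adjusted p = 0.956 in limma), 0.31 ± 0.14 at 24 hours and 0.17 ± 0.14 at 72 hours. It was 0.43 and 0.30 at 12 and 24 hours without the low-signal arrays and 0.54 and 0.39 with the day as a block, and it passed in neither of these fits. The other probe named Timp1, 21171, is marked in the revised annotation as designed on a human transcript and gave -0.56, -0.04 and 0.20.

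The 250 bases before the start of Mmp7, Timp1 and Col6a1 are shown, from the RefSeq table for GRCm38.p6. Their 12-hour arrays lay above all fed arrays, but so did those of other members, among them Adam17 (probe 18273) and Lox (probe 6999). The genes shown were chosen after their values were seen. Of 86 member symbols, 52 had an entry. Capitals mark motifs found on either strand: the AP-1 element TGAGTCA, the TATA box TATAAA, the CCAAT box CCAAT and the GC box GGGCGG.
Mmp7, chr9:7691840-7692089, plus strand: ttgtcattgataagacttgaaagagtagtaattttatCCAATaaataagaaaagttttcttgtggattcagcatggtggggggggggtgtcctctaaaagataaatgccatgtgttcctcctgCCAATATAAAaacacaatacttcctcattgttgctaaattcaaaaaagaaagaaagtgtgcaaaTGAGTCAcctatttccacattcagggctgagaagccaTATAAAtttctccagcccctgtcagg
Timp1, chrX:20869916-20870165, plus strand: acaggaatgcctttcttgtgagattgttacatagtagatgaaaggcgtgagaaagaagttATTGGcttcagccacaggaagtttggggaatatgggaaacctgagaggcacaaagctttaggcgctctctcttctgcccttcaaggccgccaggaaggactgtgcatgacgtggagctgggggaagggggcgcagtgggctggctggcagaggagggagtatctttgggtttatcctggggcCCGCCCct
Col6a1, chr10:76726045-76726294, minus strand: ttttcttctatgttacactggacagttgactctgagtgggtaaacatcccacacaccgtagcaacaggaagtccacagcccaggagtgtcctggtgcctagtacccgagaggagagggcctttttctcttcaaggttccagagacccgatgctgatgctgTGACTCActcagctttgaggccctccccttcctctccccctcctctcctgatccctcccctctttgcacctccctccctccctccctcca
The Mmp7 window held an AP-1 element that begins 63 bases before the start, a TATA box that begins 26 bases before it, a CCAAT box that begins 213 bases before it, and another CCAAT box that shares 1 base with a second TATA box. Col6a1 held the AP-1 element on the opposite strand, from 90 to 84 bases before the start, and Timp1 a CCAAT box and a GC box, both on the opposite strand. Of 32851 promoter windows of this length, 4.46% held the AP-1 element, 12.4% the TATA box, 33.8% the CCAAT box and 32.7% the GC box. Among the 59 windows of member genes, 2, 2, 16 and 37 did so, respectively. The 2 with the AP-1 element are the windows of Mmp7 and Col6a1 shown here, and enrichment was not tested. A palindromic element, TGACGTCA, was present in 1.55% of all windows and in 0 of the 59.

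Mmp2, a gelatinase of stromal cells, changed by -0.15, 0.03 and -0.0039 at 12, 24 and 72 hours. Mmp14, the membrane-bound activator of pro-Mmp2, gave 0.59 ± 0.44 (SE) and 0.61 ± 0.44 at 12 and 24 hours, but its values of 1.41 and 0.83 on the low-signal arrays were the highest of their groups, and without these arrays the changes were 0.12 and 0.46. Mmp9, the gelatinase of leukocytes, had probes of opposite sign, at 0.52 for probe 18340 and -0.30 for probe 8785 at 12 hours. Both values rest on the low-signal array, at 1.47 and -1.02, and without it they were 0.10 and 0.04. Mmp23 was below both fed values on all arrays at 12 and 24 hours, with changes of -0.47 ± 0.26 and -0.32 ± 0.26. The change of Mmp23 at 12 hours was -0.18 without the low-signal arrays. No probe was named Mmp13.

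Timp2 had 3 probes, of which 2 were higher at each time of fasting. Probe 4575 measured -0.16, -0.07 and -0.03 in fed liver, 0.13, -0.27 and 0.17 at 12 hours, 0.37, 0.32 and -0.17 at 24 hours, and 0.03, 0.12 and 0.01 at 72 hours. The arrays other than the low-signal arrays lay above the fed arrays. Without the low-signal arrays the change at 24 hours was 0.46 (adjusted p = 0.0249 in limma), 1.38-fold and so under the minimum of 1.4-fold. Probe 7831 changed by 0.12, 0.27 and 0.11, and probe 7006 by -0.23, -0.20 and -0.03. Probe 7006 was the brightest, with a median fed signal of 85.1 times the local background, against 9.59 times for probe 4575. Timp3, which binds to the matrix, was higher at 72 hours for both probes, by 0.41 ± 0.28 (SE) for probe 10858 and 0.18 ± 0.17 for probe 18003, in each case above all fed and all 24-hour arrays. At 12 hours they gave -0.31 and -0.27, and without the low-signal arrays -0.05 and -0.16.

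The 8 probes named Timp4 differed widely. The single probe for which the versions agree, 15554, changed by -0.14, -0.13 and 0.03. Probe 15446 gave the largest increase of any member at 12 hours, 0.92 ± 0.30 (SE), with values of 1.05, 0.89 and 1.18 against 0.56, -0.11 and -0.11 in fed liver. Probe 16708 passed in limma at 24 hours without the low-signal arrays (1.48-fold, adjusted p = 0.0295), and probe 16454 changed by 0.33 at 24 hours. Probe 11880 changed by 0.32 at 24 hours against fed and by -0.43 at 72 against 24 hours. The revised annotation does not name any of these 4 Timp4, so their values are given by probe and not as those of the gene.

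ADAM proteases shed the extracellular parts of membrane proteins. Adam17, which releases tumor necrosis factor and ligands of the epidermal growth factor receptor, was above both fed values, 0.02 and -0.01, on the 8 fasted arrays that measured it with probe 18273, by 0.26 ± 0.17 (SE), 0.27 ± 0.17 and 0.15 ± 0.18. Its other probe, 2961, gave 0.12, 0.06 and -0.05. Adam10, a related sheddase, changed by -0.12, 0.11 and -0.09, and the versions differ on its probe. Adam15, probe 1979, was below both fed values at 12 hours by -0.58 ± 0.35, with -1.37 on the low-signal array, and it gave -0.27 without the low-signal arrays. With the day as a block probe 1979 passed as lower at 12 hours (-1.02, adjusted p = 0.0174 in limma). The versions differ on this probe. They agree on the other Adam15 probe, 4454, which had a mean of -0.21 in fed liver and -0.28 at 12 hours. ADAMTS enzymes are secreted and cleave proteoglycans and procollagen. Adamts2, the procollagen N-propeptidase, measured -0.08 and 0.17 in fed liver, -0.71, 0.87 and -0.49 at 12 hours, and -0.47, -0.67 and 0.69 at 24 hours. The low-signal arrays lay above the fed arrays and the others below. Adamts2, without the low-signal arrays, passed as lower in limma at 24 hours (1.58-fold, adjusted p = 0.0415), and with the day as a block it passed as higher at 12 and 24 hours (0.88 and 0.85, adjusted p = 0.0258 and 0.0433 in limma). Adamts1, an aggrecan-cleaving enzyme, showed the same split, with 2.20 and 1.49 on the low-signal arrays against -0.62 to -0.28 on the other 12- and 24-hour arrays.

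Integrins pair an α and a β chain. Itgb1 encodes the β1 chain, the partner of most matrix-binding α chains. Probe 10526 measured 1.06, 0.55 and 0.46 in fed liver, 0.97, -0.81 and 1.01 at 12 hours, 0.74, 1.02 and -0.03 at 24 hours, and 0.68, 1.31 and 0.71 at 72 hours. The groups overlapped at each time, and the log2 change lay between -0.30 and 0.21 with an SE of 0.46. Itgb5, a β chain that binds vitronectin, changed by 0.06 ± 0.27 (SE) and 0.21 ± 0.27 at 12 and 24 hours. The changes were 0.39 and 0.42 without the low-signal arrays (adjusted p = 0.189 and 0.109 in limma), and -0.69 and -0.30 within the day of these arrays. Itga5, the α chain of the fibronectin receptor, was above both fed values at 72 hours with probe 17544, at 0.17, 0.09 and 0.90 against -0.19 and -0.08, with a change of 0.52 ± 0.32 (SE). Its other probe, 8212, gave -0.10. Itga6, a laminin-binding chain, changed by 0.0020, 0.19 and 0.09 against its single fed value. Itga9 was not well above background on any 24-hour array, on 1 of 3 at 12 hours and on 2 of 3 fed arrays, and its change at 72 hours was 0.12 ± 0.14. Of the 18 integrin probes, 12 α and 6 β, none passed in limma with all arrays or without the low-signal arrays. With the day as a block, Itgb1 (probe 10526), Itga3 (probe 9940) and Itga8 passed as lower at 12 and 24 hours. In that fit, Itga4 (probe 22074) passed as higher at 12 hours, and Itgb1 as higher at 72 than at 24 hours. The annotation versions differ on probes 9940 and 22074, so these calls are given by probe and not as those of the genes. The other probes of Itga3 and Itga4 did not pass there. With array weights, Itga7 passed as lower at 24 hours. No probe was named Itga1, Itga2b or Itgb3.

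Cadherins hold neighbouring cells together, and hepatocytes carry both E-cadherin (Cdh1) and N-cadherin (Cdh2). Cdh1 changed by 0.04, -0.29 and -0.27 against fed at 12, 24 and 72 hours, with an SE of 0.24. Cdh2 measured 0.72, 0.27 and -0.15 in fed liver and -0.29, 0.49 and 0.59 at 72 hours, a change of -0.02 ± 0.79 (SE). Its value on replicate 2 of 12 hours, -2.61, was the lowest of all members on any array. With the day as a block, Cdh2 passed as lower at 12 and 24 hours and as higher at 72 than at 24 hours, and Cdh1 as lower at 24 hours. Cdh11, a mesenchymal cadherin, gave its largest value there, 2.41, and with probe 5 it was lower at 72 hours than at 24 hours by -0.68 ± 0.61 without overlap. Of the 8 cadherin probes, 2, 3 and 4 were higher than in fed liver at 12, 24 and 72 hours. Cdh5, the endothelial cadherin, had no probe by that name.

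Genes outside the module that belong to the same machinery were looked at through hand-written lists. A probe entered when either annotation version matched. Agreement between the versions was not checked, so the calls below are those of probes. Of 34 probes for other matrix proteins, 22 for collagen-processing enzymes and chaperones, 21 for the plasminogen system and other matrix proteases, and 41 for adhesion complexes and cadherin partners, 0 passed in limma in any comparison with all arrays. Their median log2 changes at 12, 24 and 72 hours were 0.06, -0.04 and -0.09 for the matrix proteins, -0.15, -0.02 and -0.02 for the collagen-processing enzymes, 0.15, 0.11 and -0.01 for the matrix proteases, and -0.03, -0.03 and -0.03 for the adhesion partners. The medians of the matrix proteins without the low-signal arrays were -0.12 at 12 hours and -0.17 at 24 hours. In that fit 4, 1, 2 and 8 probes of these lists passed at 24 hours, against 9.41% of all probes, and 2, 1, 1 and 5 of them were higher. At 12 hours 1, 0, 2 and 1 probes passed, against 2.67% of all probes, the first being Emilin1, as higher. At 72 hours 0, 0, 2 and 0 passed, against 0.826% of all probes. Plg, the gene of plasminogen, a broad matrix protease made by hepatocytes, passed at 12 hours (log2 change 1.83, adjusted p = 0.0470 in limma) together with Furin, the convertase that activates several MMPs and ADAMs (1.33, adjusted p = 0.0484). Cathepsin L (Ctsl) and hepsin (Hpn), a lysosomal and a cell-surface protease, passed at 72 hours with log2 changes of 4.31 and 2.01 (adjusted p = 0.0317 and 0.0396 in limma). The 72-hour arrays differed widely for this list. Its summed sample signal, in normalized intensity units, ranged from 45752 to 130204 there, against 30303 to 43757 in fed liver. Itgav, the αv chain that pairs with Itgb5, passed as lower at 12 and 24 hours with probe 9617, at -0.88 and -0.95 (adjusted p = 0.0284 and 0.0127 in limma), while its other probes lay between -0.31 and -0.25.

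Markers of the cells that make matrix were listed alongside and matched in the same way, without a check that the annotation versions agree. For stellate cells and fibroblasts, 8 probes were matched, and their median log2 change was 0.02, 0.12 and -0.05 at 12, 24 and 72 hours, and -0.11 and -0.08 at 12 and 24 hours without the low-signal arrays. Their summed sample signal, in normalized intensity units, ranged from 7978 to 10744 in fed liver, from 9017 to 10654 at 12 hours, from 6675 to 11511 at 24 hours, and from 9248 to 10275 at 72 hours, so that the groups overlapped. For liver endothelium, 10 probes gave medians of -0.15, -0.10 and -0.05. The 9 macrophage and leukocyte probes gave -0.26, -0.18 and -0.15, and their summed signal of 5304 to 7953 at 12 hours and 6718 to 8505 at 24 hours lay below the 8852 to 10498 of the fed arrays. At 72 hours the sum was 8884 to 9566, within the range of the fed arrays. The median of these 9 probes at 12 and 24 hours was -0.11 and 0.04 without the low-signal arrays. Hepatocyte markers, with 7 probes, gave -0.01, -0.28 and -0.13. Their summed signal lay below the 173192 to 177634 of the fed arrays at every time. It was 141571 to 168314 at 12 hours, 152428 to 157461 at 24 hours and 131354 to 150982 at 72 hours. Bile duct markers, with 11 probes, gave -0.05, -0.07 and 0.01, or -0.22 at 24 hours without the low-signal arrays. Mesothelium, platelets and erythroid cells were covered by 2, 1 and 2 probes. Without the low-signal arrays, vimentin (Vim), a filament protein of mesenchymal cells, changed by -0.52 on the log2 scale at 72 hours. It passed as lower (adjusted p = 0.0448 in limma), where 0.826% of all probes passed. Of the 8 stellate cell and fibroblast probes, 3 were higher and 5, Vim among them, lower there, with a median of -0.05. The mesothelium marker Wt1 passed as lower at 24 hours in the same fit, where 9.41% of all probes passed. No marker probe passed in limma with all arrays, and none was below background on every array. The part of these shifts in the values of the module was not tested.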

How the data were processed

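Liver RNA was hybridised to 12 Agilent 22K mouse arrays with 2 colours, without exchange of dyes. The deposited files hold, per the file headers, median spot and background intensities quantified by Feature Extraction 6.1.1, not normalized. They also hold the software's log10 ratios, which the deposited value table repeats with the sign turned (largest difference 4.98e-08). The authors themselves quantile-normalized background-subtracted signals and used a Split-Factor ANOVA, which was not used here.

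Intensities were corrected over all 21446 spots by limma's normexp (offset 50). After 1075 control and 91 retired spots had been left out, 24 channels were quantile-normalized, and the log2 ratio of Cy3 to Cy5 was taken. Spots flagged as outliers were set to missing. Tests were limited to probes that the scanner software called well above background in Cy3 on every array of 1 or more groups, with a value in each group compared. Groups, taken from titles, were compared with limma 3.58.1 in R 4.3.3 (lmFit and eBayes, 1 spread per probe for 4 groups). Calls required at least 1.4-fold and an adjusted p under 0.05 (Benjamini-Hochberg, all probes tested). The fit was tested on simulated data, with planted changes all larger than that of any member in the fit of all arrays without block or weights. That test does not show whether changes of the size seen here would be found. Replicates are pools of different livers, and the number of arrays limits the precision.

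A member was any probe whose name in either annotation version fits the symbol pattern. Named probes were the 5 largest differences in each direction without overlap between arrays of both groups, and a fixed list of genes. Every call with all arrays was to be named too, but there were 0. Calls that arose only with array weights or with the day as a block are not all named. Any other probe named was chosen after its values were seen, and so were the promoters shown. Members and lists were chosen with earlier results of these data known. List genes were matched in either annotation version through RefSeq symbols and unique synonyms, without a check that the versions agree. Alternatives were loess, the log10 ratio, plain subtraction, the sample channel alone, other filters, array weights, day and replicate blocks, and arrays left out. The restriction to probes with agreeing annotation and the comparison within 1 quantification day were added after seeing the data.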

Additional observations from a re-analysis of the deposited data

How the results depend on the processing

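With all arrays, 0 members passed in each of the 4 comparisons, at 12, 24 and 72 hours against fed and at 72 against 24 hours. The count stayed at 0 with loess, the scanner log ratio, plain subtraction, the sample channel alone, outlier spots kept, no or a stricter filter on dim probes, no minimum fold, agreeing names only, fed and 72-hour arrays of 1 day, and each of the 12 arrays left out in turn (lowest 0, highest 0). It was 6, 9, 5 and 3 with array weights, 18, 13, 0 and 7 with the day of quantification as a block, 1, 6, 1 and 1 without both low-signal arrays, and 1, 0, 0 and 2 at an unadjusted p under 0.01 with a 1.4-fold change. Among the values named by rule, decorin reversed at 12 hours with the day as a block, to a log2 change of -1.16, past the threshold. Adamts2, outside that rule, passed at 24 hours as higher with the day as a block and as lower without the low-signal arrays. Of 208 named values, the sign turned in 64 with the sample channel alone, 59 with the day block, 47 with array weights, 41 without the low-signal arrays and 21 with loess.

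Replicate numbers are shared between the groups, but each group has its own mice. Same-numbered arrays deviated with correlations from -0.59 to 0.59, and 2 of 12 arrays correlated best with their own number, so the numbers do not pair the arrays. With the replicate block, 0 members passed in each comparison. A block for the slide was not run, because each array lies on a slide of its own. Signal over background limits 12 and 24 hours most, where 8 and 18 members on the low-signal arrays were not well above background.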
